A study of Caenorhabditis elegans with 6 samples.

Results

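The genes examined were the Hedgehog-related and patched-related genes of the nematode Caenorhabditis elegans, chosen by symbol as every transcript record named grd, grl, wrt, hog, qua, ptc or ptr with a number. The RefSeq annotation names 88 such genes, and 82 of them had 111 records in the count tables, out of 39875 named genes and 50832 records in all. The ligand-like group (grd, grl, wrt, hog and qua) held 58 genes with 78 records, and the receptor-like group (ptc and ptr) held 24 genes with 33 records. The pseudogenes ptc-2, grd-17 and grl-32 and the genes grl-4, ptr-10 and ptr-17 had no matching record and were not analysed here.

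RNA from whole starved first-stage (L1) larvae was sequenced from a strain with the spr-5 allele by101 and the met-2 allele n4256, the spr-5; met-2 double mutant (3 libraries), and from the wild-type strain N2 (3 libraries), 17062557 to 25368364 counts a library. SPR-5 is an LSD1-type demethylase of histone H3, and MET-2 is a SETDB1-type methyltransferase of histone H3. The study asked which genes differ in expression in the double mutant L1 progeny. Both groups were grown on HT115 bacteria at 20 °C, and larvae hatched overnight in buffer at 21 to 22 °C. From 1000 to 1500 larvae went into each RNA preparation. The library headers also carry L4440, the name of a plasmid used in RNAi by feeding, which no label mentions. The labels leave the cultures behind the replicates unstated, and p-values therefore rest on a spread between libraries that could be technical. Whole larvae were used, so fewer cells of a type and less RNA per cell cannot be told apart.

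In flies and vertebrates, Hedgehog is a secreted protein that binds the membrane protein Patched and thereby releases the signalling protein Smoothened. C. elegans lacks a clear Smoothened and a true Hedgehog, but has large families of secreted Hedgehog-related proteins: warthog (wrt), groundhog (grd), ground-like (grl), hog-1 and quahog (qua-1). It also has Patched itself (ptc) and many patched-related proteins (ptr) with a sterol-sensing domain. Many of these genes act in the epidermis, the support cells of sense organs and the making and moulting of the cuticle, and transcripts of many epidermal genes rise and fall with each larval moult.

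Of the 82 genes, 55 had a record with enough counts to be tested, 34 ligand-like and 21 receptor-like. Of these 55 records 7 (12.7%) passed an adjusted p of 0.05 in edgeR's quasi-likelihood test, against 25.9% of all 14557 tested records. The share of members called was thus below that of the whole table. Among the ligand-like genes 1 record rose and 5 fell, and among the receptor-like genes 1 rose and 0 fell; of all tested records 14.3% rose and 11.7% fell. At an unadjusted p below 0.05 in edgeR, 2 ligand-like records were higher and 6 lower, and 4 receptor-like records were higher and 0 lower, where 19.7% of all tested records were higher and 18.3% lower. DESeq2 and limma voom also called 0 receptor-like records lower, where they called 10.5% and 11.8% of all records lower. The 3 double mutant libraries lay wholly above or below the 3 N2 libraries in 13 of the 55 records (23.6%), against 43.6% of all tested records. They lay above in 8 of the 55 records, where 22.3% of all tested records did. In 5 of the 55 they lay below, where 21.3% of all tested records did. The median log2 fold change (double mutant over N2) was 0.03 for tested ligand-like records and 0.34 for tested receptor-like records, beside -0.01 for all tested records. Without N2 replicate 3 the receptor-like median was 0.21.

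**Figure D1:**
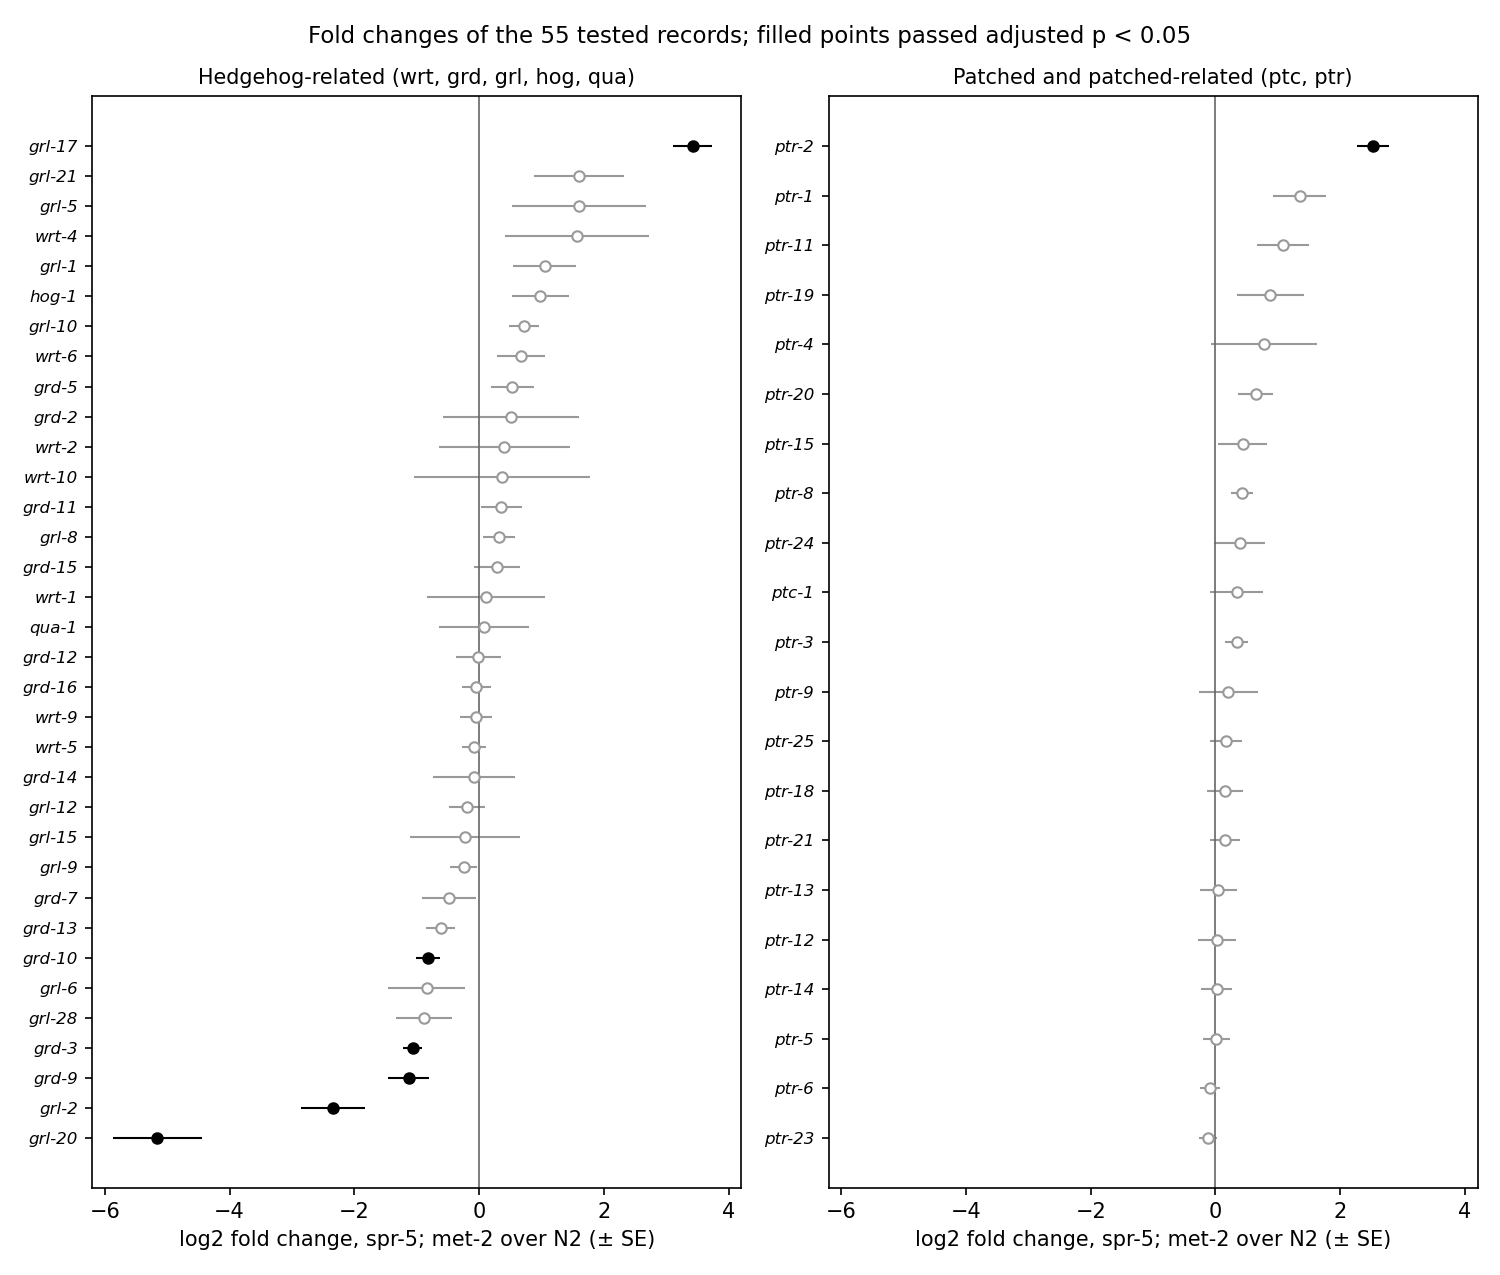
Log2 fold change, spr-5; met-2 over N2, of the 55 tested records (points, bars ± SE from edgeR), ligand-like genes on the left and receptor-like genes on the right; filled points passed an adjusted p of 0.05. Only grl-17 and ptr-2 passed on the positive side, and grd-10, grd-3, grd-9, grl-2 and grl-20 on the negative side.

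The most abundant members were 3 groundhog genes that lie next to each other on chromosome IV, grd-13, grd-3 and grd-10. Grd-10 is a gene whose promoter drives expression in the seam cells of the epidermis. Per kilobase of exons, grd-10 stood at 185 CPM (counts scaled to library size and between libraries by edgeR's trimmed mean of M-values, TMM) in the double mutant and 326 CPM in N2, grd-3 at 104 and 219 CPM, and grd-13 at 128 and 196 CPM. The next ligand-like genes per kilobase were grd-5 at 30.5 CPM in the double mutant and 21.0 CPM in N2, wrt-10 at 18 and 13.9 CPM, wrt-5 at 16 and 16.9 CPM and grl-8 at 16 and 12.9 CPM. The 3 neighbours alone held 71.7%, 50.9% and 64.6% of all ligand-like CPM in double mutant replicates 1, 2 and 3, and 82.4%, 68.1% and 83.5% in those of N2. The receptor-like genes were more even: the 5 highest per kilobase, ptr-8, ptr-21, ptr-23, ptr-13 and ptr-5, lay between 16.8 and 27.1 CPM in the double mutant and between 16.6 and 23 CPM in N2. In the double mutant the libraries of neighbours in this order overlapped.

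**Figure D2:**
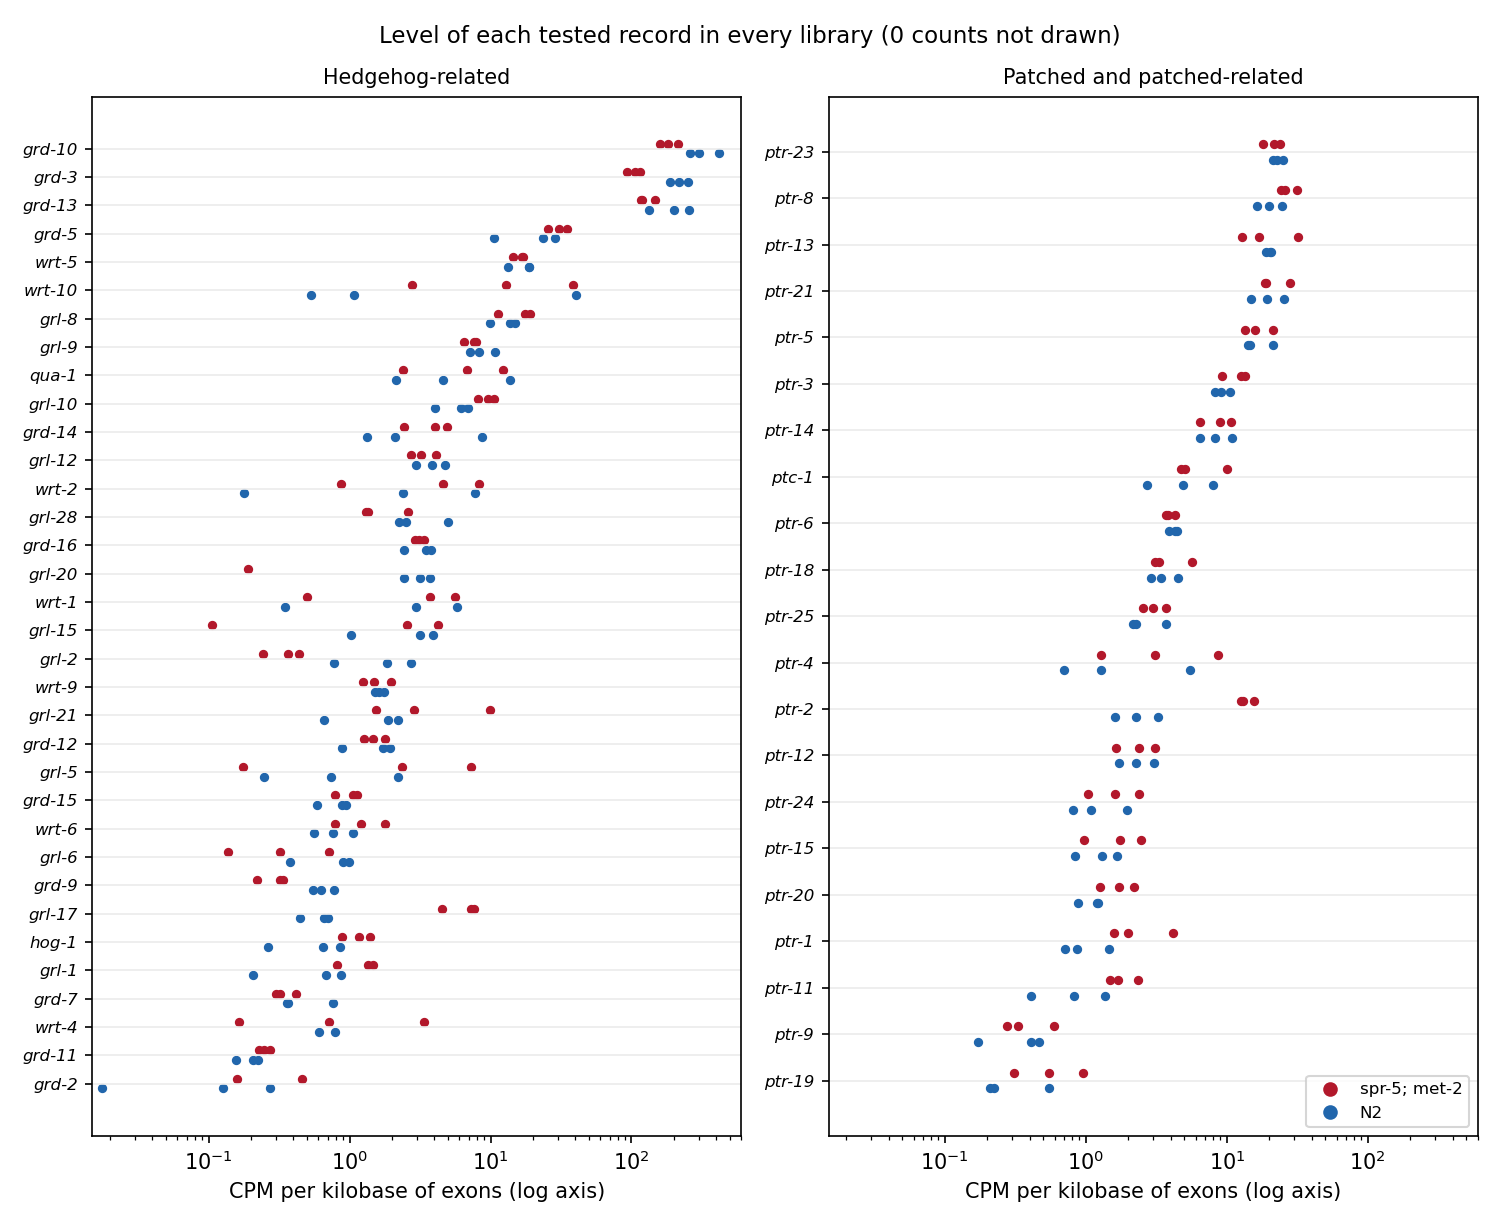
Level of each tested record in CPM per kilobase of exons (log axis) in every library, spr-5; met-2 in red above N2 in blue; libraries with 0 counts are not drawn. The chromosome IV groundhog genes grd-10, grd-3 and grd-13 stood above every other member, and wrt-10, wrt-1 and wrt-2 were spread widely within both groups.

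The chromosome IV groundhog genes were lower in the mutant, and 2 of the 3 passed the test. Grd-3 had 72.9, 64.2 and 79.1 CPM in double mutant replicates 1, 2 and 3, against 129, 150 and 174 CPM in those of N2. Every mutant library was below every N2 library, and grd-3 fell by 1.07 ± 0.15 on the log2 scale (SE, edgeR adjusted p = 0.00168). Grd-10 had 115, 101 and 134 CPM in the double mutant, against 165, 190 and 265 CPM in N2. The groups again did not overlap, and grd-10 fell by 0.82 ± 0.20 on the log2 scale (SE, edgeR adjusted p = 0.0186); the call was lost without double mutant replicate 2 (adjusted p = 0.0718) and with scaling by library size only (adjusted p = 0.0949). Grd-13 had 72.9, 71.7 and 89.7 CPM in the double mutant, against 81.3, 122 and 155.5 CPM in N2, so that N2 replicate 1 lay inside the mutant range. Its log2 fold change was -0.62 ± 0.23 (SE, edgeR adjusted p = 0.0864), and in the fit with the replicate number as a block, which compares libraries of the same number, -0.58 ± 0.15 (edgeR adjusted p = 0.0174). In each of the 3 replicate numbers, grd-3, grd-10 and grd-13 were lower in the mutant library than in the N2 library of that number. Without these 3 genes, the summed ligand-like level was 103, 229 and 166 CPM in the double mutant, against 80.4, 216.5 and 118 CPM in N2, with the ranges overlapping. Within every replicate number this remainder was higher in the mutant library than in the N2 library.

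The other groundhog genes were mostly low. Grd-9 had 13, 8 and 18 counts in the double mutant, against 20, 31 and 25 counts in N2, or 0.585 ± 0.125 and 1.30 ± 0.221 CPM (SD, n = 3 each, edgeR adjusted p = 0.0399). It fell by 1.13 ± 0.33 on the log2 scale (SE), but 10 of 14 alternative settings lost the call, among them the replicate block (edgeR adjusted p = 0.0515) and DESeq2 (adjusted p = 0.0906). Of the remaining 8 tested groundhog records, log2 fold changes ran from -0.49 for grd-7 to 0.53 for grd-5, and 0 passed the test in edgeR, at an adjusted or an unadjusted p, in DESeq2 or in limma voom. Grd-5 had 13.5, 18.3 and 16.2 CPM in the double mutant, against 5.55, 15.1 and 12.4 CPM in N2 (log2 fold change 0.53 ± 0.34, SE).

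The ground-like genes held the largest changes in either direction among the 55 tested records, grl-17 upwards and grl-20 downwards. Grl-17 had 6.10, 10.2 and 9.75 CPM in the double mutant, against 0.879, 0.941 and 0.601 CPM in N2. The lowest mutant library stood well above the highest N2 library, and grl-17 rose by 3.42 ± 0.31 on the log2 scale (SE, edgeR adjusted p = 0.000215), a 10.7-fold difference. The call held under all 15 alternative settings, with log2 fold changes between 3.22 and 3.68. Exons of C56A3.8 and of the non-coding C56A3.12 and C56A3.14 overlap grl-17 on the other strand, and all of their records had 0 counts in every library. C56A3.8 has 3 records, and 0 counts in a gene with several records cannot be read as silence. Whether reads of these partners add to grl-17 was not tested.

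Grl-20 had 0, 0 and 4 counts in the double mutant, against 33, 56 and 47 counts in N2, so that nearly all of its counts came from wild-type larvae. As CPM it stood at 0.0475 ± 0.0822 in the double mutant and 2.31 ± 0.481 in N2 (SD, n = 3 each), and it fell by 5.16 ± 0.71 on the log2 scale (SE, edgeR adjusted p = 0.00169). It entered the test through its N2 libraries alone. All 4 mutant counts were in replicate 3, and without it the fitted value was -8.48, which is not a bound. The N2 mean was 28.9-fold above a floor of 3 counts over the other mutant libraries, which leaves out the spread of the N2 libraries. The globin gene glb-7, whose exons overlap grl-20 on the other strand, had 7.86, 5.52 and 7.26 CPM in the double mutant, against 10.7, 9.81 and 9.01 CPM in N2. The strand setting of the counting is not given in the sources used here, so reads of such partners cannot be told apart.

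Grl-2, whose promoter is active in the excretory duct and pore cells, was also lower. It had 0.310, 0.552 and 0.463 CPM in the double mutant, against 0.989, 2.33 and 3.46 CPM in N2. All mutant libraries lay below all N2 libraries, and grl-2 fell by 2.34 ± 0.51 on the log2 scale (SE, edgeR adjusted p = 0.0129); the call was lost without double mutant replicate 3 (adjusted p = 0.0539). Its overlapping neighbour on the other strand, T16G1.9, went the other way, with 80.3, 79.6 and 73.9 CPM in the double mutant and 43.7, 49.8 and 43.9 CPM in N2. The excretory duct and pore gene lin-48 had 12.97 CPM in the double mutant and 14.6 CPM in N2 (log2 fold change -0.17 ± 0.19, SE, edgeR adjusted p = 0.540), and 0 of the 4 tested duct and pore genes passed in edgeR (0 also at an unadjusted p below 0.05, 0 in DESeq2 and limma voom, and 1 with the replicate block).

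The 10 other tested ground-like genes did not pass the test in edgeR. Grl-10 had 7.91, 9.38 and 10.2 CPM in the double mutant, against 3.96, 6.04 and 6.71 CPM in N2. These groups did not overlap either, but a difference of 0.72 ± 0.24 (log2, SE) had an edgeR adjusted p of 0.0652; it passed with the replicate block (adjusted p = 0.0194) and with DESeq2 (adjusted p = 0.0351). Exons of the ribosomal protein gene rpl-39 overlap grl-10 on the other strand. Grl-21 was high in 1 library, with 1.03, 1.93 and 6.65 CPM in double mutant replicates 1, 2 and 3, against 1.26, 0.446 and 1.5 CPM in N2 (log2 fold change 1.60 ± 0.72, SE, edgeR adjusted p = 0.145). The neighbours grl-8 and grl-9, among the most abundant of the ground-like genes, had 14.9, 8.77 and 13.6 CPM and 8.06, 6.89 and 8.40 CPM in the double mutant, against 7.69, 10.7 and 11.5 CPM and 7.58, 8.82 and 11.4 CPM in N2. Their groups overlapped.

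**Figure D3:**
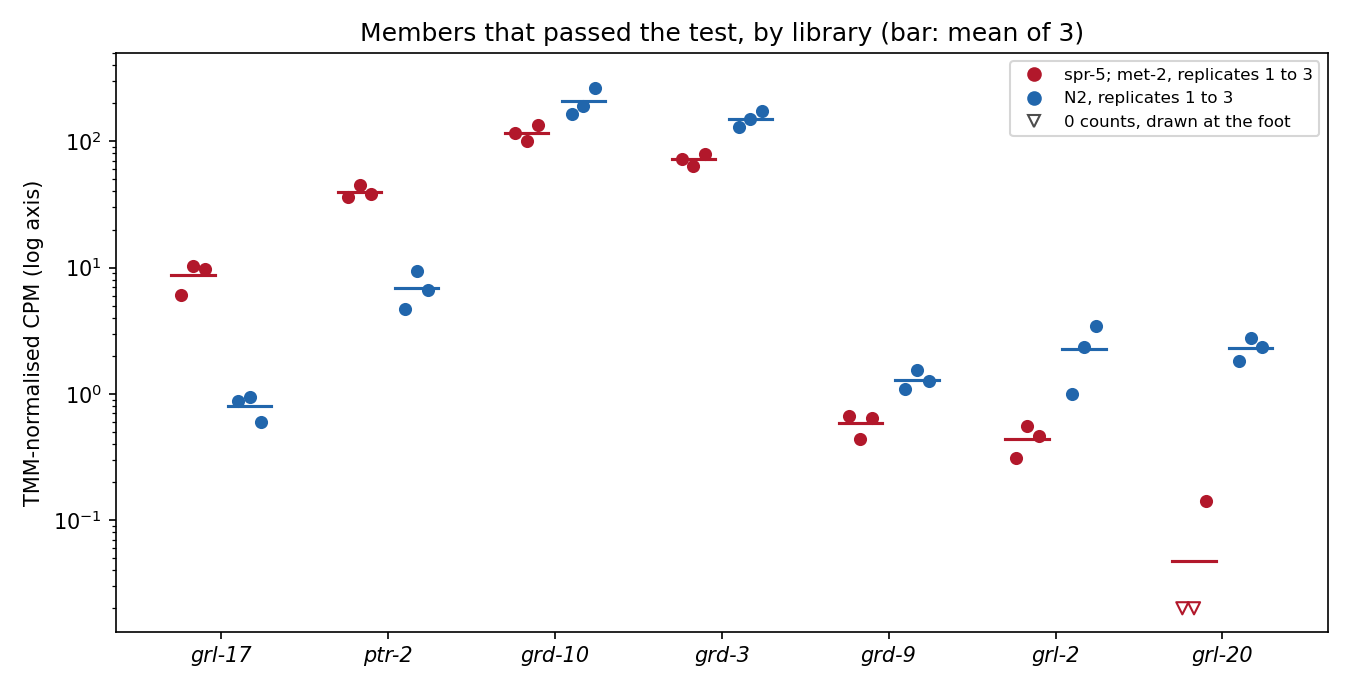
TMM-normalised CPM (log axis) of the 7 records that passed the test, with spr-5; met-2 libraries left of N2 libraries for each gene; bars are means of 3 libraries and open triangles mark libraries with 0 counts. Grl-17 and ptr-2 were higher in all mutant libraries, and grd-10, grd-3, grd-9, grl-2 and grl-20 were lower in all of them.

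The warthog genes, whose proteins carry a secreted Wart domain and in part also the self-cleaving Hog domain of Hedgehog, had 0 of 7 tested records past the threshold in edgeR (0 also at an unadjusted p below 0.05, and 0 of these 7 in DESeq2 and limma voom). Over all tested records 25.9% passed in the main test. Wrt-8, too low for the main test, is given with the records left out. The steady warthog genes were wrt-5 and wrt-9. Wrt-5 had 11.5, 13.7 and 13.4 CPM in the double mutant, against 15.1, 15.1 and 10.7 CPM in N2 (log2 fold change -0.08 ± 0.19, SE, edgeR adjusted p = 0.802). Wrt-9 was at 3.28 ± 0.788 CPM in the double mutant and 3.39 ± 0.245 CPM in N2 (SD, n = 3 each). Hog-1, which has the Hog domain, had 0.827, 1.10 and 1.32 CPM in the double mutant, against 0.605, 0.248 and 0.801 CPM in N2. The mutant libraries all lay above the N2 libraries, but with 5 to 37 counts a library the difference of 0.98 ± 0.45 (log2, SE) missed the threshold (edgeR adjusted p = 0.155).

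Other ligand-like genes differed far more between libraries of the same group than between groups, in a pattern shared by replicates of the same number. Wrt-10 had 3.15, 43.2 and 14.6 CPM in double mutant replicates 1, 2 and 3, against 1.21, 45.4 and 0.601 CPM in those of N2. Its neighbour wrt-1 had 0.879, 9.76 and 6.51 CPM in the double mutant, against 0.605, 10.1 and 5.16 CPM in N2. Wrt-2, whose promoter drives expression in the epidermis, had 1.34, 12.7 and 7.08 CPM in the double mutant, against 0.275, 11.9 and 3.71 CPM in N2. In wrt-1 and wrt-2 replicate 1 was lowest and replicate 2 highest in both groups, while wrt-10 was lowest in N2 replicate 3. Qua-1, needed for moulting, had 9.20, 47.5 and 26.2 CPM in the double mutant, against 8.24, 52.7 and 17.8 CPM in N2. Qua-1 followed the same order of libraries, and its groups overlapped (log2 fold change 0.07 ± 0.72, SE, edgeR adjusted p = 0.954).

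Replicate 2 was at least 2-fold above replicate 1 in both groups (with 0.1 CPM added) in 8 of the 34 tested ligand-like records (23.5%): wrt-1, wrt-2, wrt-4, wrt-10, qua-1, grl-5, grl-15 and grd-2. The same held for ptr-4 and ptr-19 among the 21 receptor-like records (9.52%), and for 2.37% of all tested records. The furrow collagens, cuticle genes of the moulting cycle, showed it in 6 of 6 records; dpy-7 had 4.76, 53.4 and 19.8 CPM in the double mutant, against 2.31, 45.1 and 4.26 CPM in N2. Of 13 tested genes of a moulting-cycle list, 4 did so. With the replicate block, all 6 furrow collagens rose in edgeR, as did 5 of the 13 moulting-cycle genes and 3 of the 7 epidermal genes. In that fit 18.9% of all tested records rose, and dpy-7 is counted among both the furrow collagens and the epidermal genes. The labels give no age of the larvae per library. Grl-5 rose in the fit with the block (log2 fold change 1.45 ± 0.40, SE, edgeR adjusted p = 0.0252, against 0.318 without the block). Its mutant over N2 ratio was 0.706, 3.34 and 3.17 in replicates 1, 2 and 3, with 3 against 4 counts in replicate 1. Leaving out N2 replicate 2 alone brought wrt-10 past the threshold (log2 fold change 4.48, edgeR adjusted p = 0.0412, against 0.880 with all libraries). Mutant over N2, wrt-10 stood at 2.61, 0.952 and 24.2 in replicates 1, 2 and 3.

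**Figure D4:**
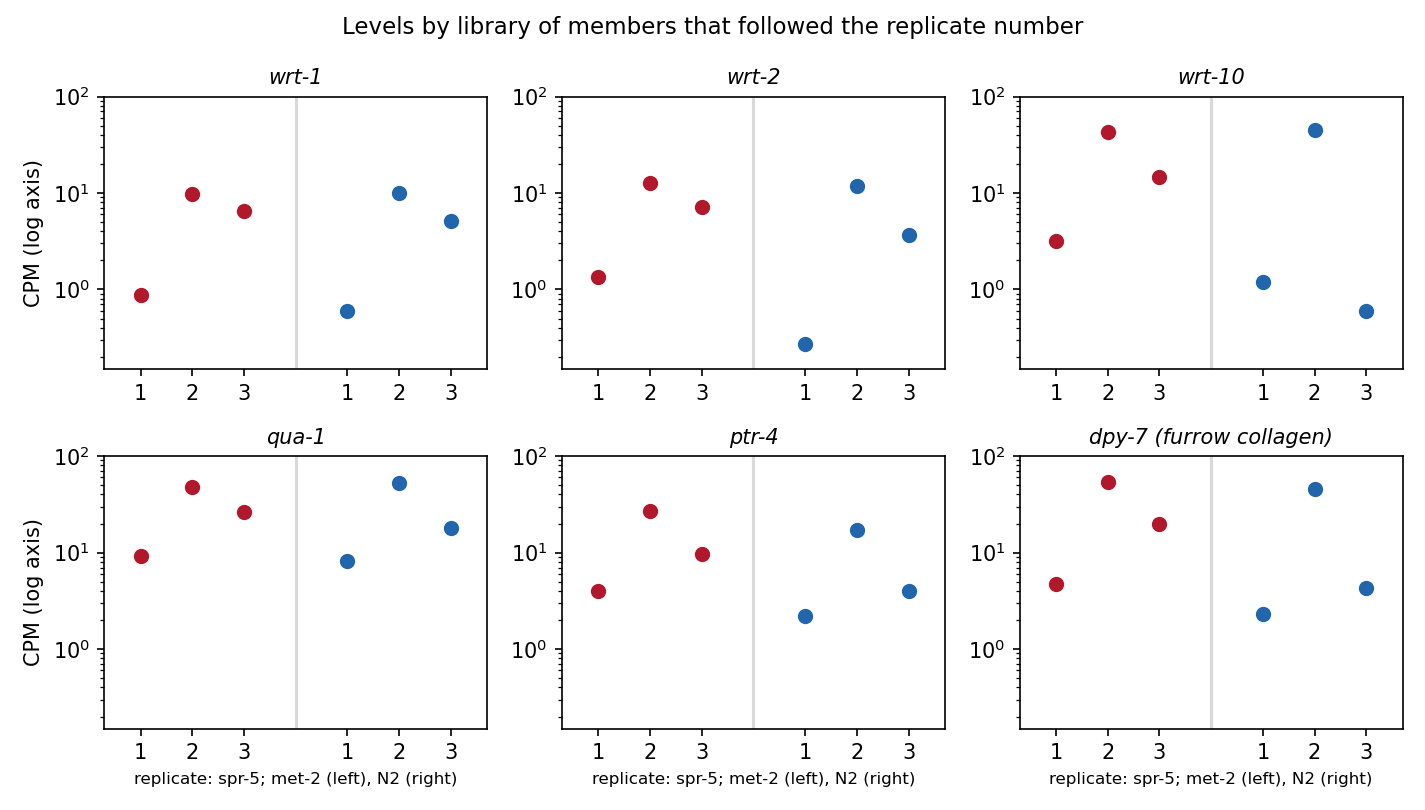
CPM (log axis) by library of 5 members and the furrow collagen dpy-7, with spr-5; met-2 replicates 1 to 3 on the left (red) and N2 replicates 1 to 3 on the right (blue) of each panel. Replicate 2 was the highest in both groups in every panel, and the ranges of the groups overlapped in all 6 panels; these genes were chosen after their values were seen.

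Among the receptor-like genes, ptr-2 was the member that rose. Ptr-2 had 36.4, 45.4 and 37.9 CPM in the double mutant, against 4.67, 9.46 and 6.61 CPM in N2. The lowest mutant library stood far above the highest N2 library, and ptr-2 rose by 2.53 ± 0.26 on the log2 scale (SE, edgeR adjusted p = 0.000371), a 5.76-fold difference. The call held under all 15 alternative settings, with log2 fold changes between 2.29 and 2.81, and no annotated exon of another gene overlaps it. Per kilobase, ptr-2 stood at 13.7 CPM in the double mutant and 2.38 CPM in N2.

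Ptr-1, ptr-11 and ptr-20 were also higher in all mutant libraries but missed the threshold. Ptr-1 had 4.76, 12.5 and 5.98 CPM in the double mutant, against 2.58, 4.36 and 2.15 CPM in N2 (log2 fold change 1.35 ± 0.43, SE, edgeR adjusted p = 0.0528). Ptr-11 had 6.57, 4.19 and 4.73 CPM in the double mutant, against 3.85, 2.33 and 1.15 CPM in N2 (log2 fold change 1.08 ± 0.42, SE, edgeR adjusted p = 0.0975). With the replicate block ptr-1 and ptr-11 passed, ptr-1 at an edgeR adjusted p of 0.00329 and ptr-11 at 0.0172. Both also passed with DESeq2 (adjusted p = 0.0102 and 0.0492) and with scaling by library size only (edgeR adjusted p = 0.0294 and 0.0328). Ptr-20 had 4.65, 3.42 and 5.98 CPM in the double mutant, against 3.30, 3.32 and 2.40 CPM in N2 (log2 fold change 0.64 ± 0.28, SE, edgeR adjusted p = 0.132). Ptr-4, which acts in the apical matrix of the epidermis, passed with the block as well. It had 3.98, 27.0 and 9.61 CPM in the double mutant, against 2.20, 17.2 and 4.01 CPM in N2, a mutant over N2 ratio of 1.81, 1.56 and 2.40 within replicates 1, 2 and 3. Its log2 fold change was 0.91 ± 0.19 in the block fit (SE, edgeR adjusted p = 0.00820) and 0.78 ± 0.85 without the block (edgeR adjusted p = 0.543). With the block, 4 receptor-like records and 3 ligand-like records rose, where 18.9% of all records did, and 5 ligand-like records fell, where 16.3% of all records did. The furrow collagens rose in the same fit, and their part in these calls was not tested.

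Patched itself did not pass the test. Ptc-1, needed for cytokinesis in the germ line, had 51.0, 25.6 and 23.8 CPM in the double mutant, against 40.8, 24.8 and 13.8 CPM in N2. The groups overlapped, and the log2 fold change was 0.34 ± 0.42 (SE) at an edgeR adjusted p of 0.602. The 3 records of ptc-3 had at most 3 counts in a library and were not tested. The abundant patched-related genes ptr-5, ptr-13, ptr-21 and ptr-23 had log2 fold changes of 0.01 ± 0.22, 0.05 ± 0.30, 0.15 ± 0.23 and -0.12 ± 0.14 (SE). Ptr-23, linked to osmotic balance, had 81.4, 73.9 and 62.1 CPM in the double mutant, against 72.4, 86.2 and 77.7 CPM in N2. Ptr-8, the highest of the family per kilobase in the mutant, had 87.8, 72.4 and 67.8 CPM in the double mutant, against 55.6, 46.1 and 68.6 CPM in N2, and N2 replicate 3 lay within the mutant range (log2 fold change 0.42 ± 0.18, SE, edgeR adjusted p = 0.118). Ptr-18, which clears the ground-like protein GRL-7 from the space outside cells, had 9.20, 17 and 9.93 CPM in the double mutant, against 8.63, 13.5 and 10.3 CPM in N2. Those groups overlapped, and the records of grl-7 itself had at most 5 counts in a library. Across the receptor-like genes, 9 of 21 were higher in the mutant library in all 3 replicate numbers, and ptr-6 alone was lower in all 3, with 13.2, 11.4 and 11.7 CPM in the double mutant and 13.6, 11.9 and 13.2 CPM in N2; of the 34 ligand-like genes 9 were higher and 7 were lower in all 3. Of all tested records 32.3% were higher and 31.6% lower in all 3.

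Relatives of the pathway outside these families were read from a list of 14 genes for release, lipid modification, sterol sensing and binding at the cell surface. Of 13 tested, 2 rose and 1 fell, where 14.3% of all tested records rose and 11.7% fell. Che-14, the Dispatched homologue that acts in secretion from epidermal and support cells, had 6.36, 8.05 and 6.33 CPM in the double mutant, against 2.25, 2.13 and 2.20 CPM in N2. The groups were far apart, and che-14 rose by 1.65 ± 0.21 on the log2 scale (SE, edgeR adjusted p = 0.00124), a call held under all 15 alternative settings. Scp-1, a sterol-sensing relative of the SREBP cleavage activator, had 27.1, 183.5 and 31.2 CPM in the double mutant, against 18, 12.3 and 12.5 CPM in N2. Its rise of 2.50 ± 0.72 on the log2 scale (SE, edgeR adjusted p = 0.0376) rested largely on double mutant replicate 2, without which the log2 fold change was 1.04 (adjusted p = 0.0224). The call was lost in limma voom (adjusted p = 0.0985) and without any 1 of the N2 libraries (adjusted p = 0.0713 to 0.114). The glypican gene gpn-1 fell by 0.78 ± 0.23 on the log2 scale (SE, edgeR adjusted p = 0.0394), a call lost under 7 of 15 alternative settings. Tra-1, the nematode Gli family factor, had a log2 fold change of -0.43 ± 0.24, and the Niemann-Pick homologues ncr-1 and ncr-2 of -0.09 ± 0.23 and 0.20 ± 0.24 (SE), and none of these passed the test in edgeR.

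Marker lists gave the setting of these results. Of 7 tested epidermal genes 1, che-14, rose and 0 fell. The summed level of the epidermal list was 267 to 292 CPM in the double mutant and 181 to 284 CPM in N2. Most of that sum was dlg-1 alone, at 212 to 266 CPM in the double mutant and 169.5 to 266 CPM in N2. The epidermal genes elt-1 and elt-3, which have 4 and 2 records, were at 0 counts in every library. Genes with several records at 0 counts cannot be read as silent here. Of 9 tested germ line genes 8 rose, with prg-1, htp-1 and mex-5 of the smallest adjusted p, at 4.52 ± 0.14 for prg-1, 3.74 ± 0.19 for htp-1 and 4.19 ± 0.22 for mex-5 (log2, SE), and their summed level was 1393 to 1485 CPM in the double mutant, against 88.4 to 132 CPM in N2; pgl-1 and him-3 had 0 counts. These germ line genes moved with the genotype, as did ptr-2 and grl-17, and their part in those results was not tested. Of 13 tested moulting-cycle genes 2 rose, mlt-10 by 1.14 ± 0.28 and myrf-1 by 0.83 ± 0.18 (log2, SE), and 0 of 6 furrow collagens and 0 of 5 glial genes passed in edgeR without the block (0 and 1 at an unadjusted p below 0.05, and 0 in DESeq2 and limma voom). Of 3 tested seam cell genes bro-1 rose by 1.86 ± 0.31 (log2, SE), beside elt-6 at -0.24 ± 0.13. Of 6 tested intestinal genes elt-2 and ifb-2 rose and ges-1 and vha-6 fell, and of 4 pharyngeal genes tnt-4 fell. The tnt-4 call (edgeR adjusted p = 0.0387) was lost under 8 of 15 alternative settings, and ifb-2 was not called by DESeq2 or limma voom. Of 3 muscle and 5 neuronal genes 0 passed in edgeR, at an adjusted or an unadjusted p, and 0 in DESeq2 and limma voom. Spr-5 was at 123 ± 6.58 CPM in the double mutant and 53.8 ± 10.7 CPM in N2 and met-2 at 82.7 ± 4.04 and 111 ± 9.36 CPM (SD, n = 3 each), so neither transcript was lost and they check no label.

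The 24 ligand-like and 3 receptor-like genes that were not tested cannot be read as silent. Of the 16 member genes with several records 6 were tested, against 49 of 66 with 1 record, and their median summed count over all libraries was 19 against 301. Wrt-3, grd-1, grd-6, grl-13 and grl-14 had 0 counts in every library, of which grd-6, grl-13 and grl-14 have several records. Of the records left out, wrt-8 had 34, 22 and 9 counts in the double mutant, against 4, 8 and 1 counts in N2. A non-coding record of grl-25 had 2, 10 and 14 counts in the double mutant and 0 in all N2 libraries. Its mutant mean was 7.48-fold above a floor of 3 counts over the N2 group, which leaves out the spread of the mutant libraries. DESeq2 called both higher here (wrt-8 adjusted p = 0.0391, grl-25 adjusted p = 0.00821), as did edgeR without a count filter (wrt-8 adjusted p = 0.0317, grl-25 adjusted p = 0.00809). In the authors' deposited table both rose, wrt-8 by 1.75 ± 0.66 (adjusted p = 0.0366) and grl-25 by 2.46 ± 0.78 (adjusted p = 0.00994) on the log2 scale.

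The authors' deposited table gave an adjusted p for 66 member records. At 0.05, 4 ligand-like records rose in it (grl-17, grl-10, grl-25 and wrt-8) and 4 fell (grl-20, grl-2, grd-3 and grd-10), and 3 receptor-like records rose (ptr-2, ptr-1 and ptr-11). Of all records with an adjusted p in the authors' deposited table, 13% rose and 10.6% fell. In the authors' deposited table grl-17 was at 3.26 ± 0.35, ptr-2 at 2.46 ± 0.27, grl-20 at -4.20 ± 0.60 and grd-3 at -1.04 ± 0.18 (log2 fold change and standard error). Grd-9 did not pass there, with an adjusted p of 0.0894.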

How the data were processed

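RNA-seq counts per transcript record of 6 libraries were used as deposited. Reads were aligned with HISAT2, per the file headers, and FastQC, Trimmomatic, featureCounts, DESeq2 2.11.40.2 and build ce10 are named in the submitters' processing notes. How strand and reads with several matches were handled, and the library kit, is not stated in what was available here. The authors' deposited table holds log2 fold changes and p-values, raw and adjusted, per the file headers. It also holds a base mean signal, which the authors made as a mean of counts divided by size factors, and 2 score columns, the standard error and Wald statistic that the authors computed, per the file headers.

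Records were named by accession without version from a RefSeq gene table, and exon lengths, overlaps and neighbours came from an Ensembl annotation, both of WBcel235. The counts were made on ce10, so no coordinates are given, and promoter and protein sequences were not analysed here. Of 50832 records, 46074 were named, holding 86.57% to 87.19% of a library's counts. Records with about 10 counts in 3 libraries (0.486 CPM, edgeR's filter) and 15 in all were tested. The edgeR 4.0.16 quasi-likelihood test (R 4.3.3, TMM, Benjamini-Hochberg over 14557 records, two-sided, threshold 0.05) was the main test, with DESeq2 1.42.0, limma 3.58.1 voom, other scalings and filters, records summed per gene, a replicate block and left-out libraries as alternatives. The code was tested on simulated data.

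The members and lists were chosen with earlier results of these data known. Per-library values were given for ptc-1, ptc-3, hog-1, qua-1, the most abundant gene of each family, and the 4 rising and 4 falling members with the smallest adjusted p in each role; all called members were named, and other members could be named with their values. Of the other lists, up to 3 called genes with the smallest adjusted p were named. A few more were named after their values were seen.

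The labels number replicates 1 to 3 in both groups. Deviations from group means correlated at r = 0.46, 0.36 and 0.19 between same-numbered libraries over 14557 records, and at -0.37 to 0.09 between others. The main test did not pair the libraries. Pairing by number was used only in the replicate block and in comparisons within a replicate number. This pairing comes from the data, not from a stated shared culture. The floors cover counting error only, while the SE and SD values also hold the spread between libraries.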

Additional observations from a re-analysis of the deposited data

How the results depend on the processing

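Over the alternative settings for the 7 called members and for ptc-1, hog-1, qua-1, wrt-5, grl-8 and ptr-8, 172 results kept their direction and side of the threshold, 13 no longer passed, 1 newly passed and 6 changed sign. With scaling by library size only, the median of all tested records was 0.21 (log2) and 827 of them fell against 1698 with TMM, so that 77.7% of calls rose against 55%. Under that scaling 3 ligand-like records fell (5.68% of all records did) and 4 receptor-like records rose (19.8% of all records did), with medians of 0.24 and 0.55, which relative to all records are 0.03 and 0.34. Without a count filter 4 ligand-like and 2 receptor-like records rose, with DESeq2 4 and 3, and with the replicate block 3 and 4, where 8.95%, 12.9% and 18.9% of all records rose. With at least 1 CPM in 3 libraries, 3 ligand-like records fell, where 12.8% of all records did. Grd-9 and grl-2 were among the records the stricter filter left out. The replicate block changed no other call among the members than those given above. Leaving out libraries, the count that fell ran from 800 to 1803 over all records (5.41% to 12%) and from 3 to 6 over ligand-like records. The count that rose ran from 1 to 2 in each role, where 9.53% to 13.9% of all records rose. The ligand-like median ran from -0.17 to 0.39, the value without N2 replicate 2, and the receptor-like median from 0.20, without replicate 1 of both groups, to 0.42. Ptc-1 was at -0.10 without double mutant replicate 1, and wrt-5 at 0.16 with library size only and at 0.07 without replicate 1 of both groups, a setting chosen after seeing the data. With libraries left out, qua-1 ran from -0.56 to 1.07 (also -0.38 and -0.17 below 0), ptc-1 from -0.10 to 0.77 and wrt-5 from -0.25 to 0.07. The cause of these shifts was not tested. Records under 10 counts a library are at the limit of this depth.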
